A study of Mus musculus with 6 samples.

Results

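The sterol sensing genes of the liver were followed on 6 Affymetrix mouse arrays: Insig1, Insig2, Scap and Srebf2, which encode the sensing machinery of the endoplasmic reticulum, and Stard4, which encodes a cytosolic sterol carrier. These 5 genes of the 18193 measured were chosen by name, with earlier results of these data known. Of the 34945 probe sets that name a single gene, 11 belong to them. No member is a lipoprotein receptor. Livers came from male C57BL/6J mice of 8 weeks in 3 groups of 2 arrays: fed wild-type, wild-type fasted for 24 h, and Cnot3+/- fasted for 24 h. All were kept on a normal chow diet. Fasted mice were housed singly, and no fed Cnot3+/- group was part of the design, so genotype could be compared in the fasted state only. Values are log2 levels made by the authors with RMA (robust multi-array average), in which a difference of 1 is a doubling. Arrays of a group are labelled as biological replicates, and their number limits the precision of every value.

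Cells measure sterol in the membrane of the endoplasmic reticulum. The precursor of the transcription factor Srebf2 is bound there to Scap, which carries it to the Golgi for cleavage when sterol is scarce, and the Insig proteins hold Scap back when sterol is plentiful. The freed factor switches on sterol synthesis genes and also Insig1 and Stard4, whereas Insig2 is known in liver as a transcript that insulin holds down and fasting raises. Cnot3 belongs to CCR4-NOT, the deadenylase that trims poly(A) tails and thereby begins mRNA decay.

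The arrays carried liver RNA: all 9 measured hepatocyte markers, among them Alb and Apoa1, lay between 13.53 and 15.20 in mean log2 level, far above the array medians of 5.59 to 5.64, and none was called on fasting. The lowest p among them was that of Apob, which read 13.18 and 13.22 in fed and 14.25 and 13.53 in fasted wild-type livers (0.69, interval 0.15 to 1.23, limma adjusted p = 0.156). The brighter probe set of Cnot3 read 9.27 and 9.32 in fasted wild-type livers and 9.40 and 9.16 in fasted Cnot3+/- livers. Since the deleted stretch of Cnot3 is not given in the sources used here, this level does not check the genotype. Replicate arrays correlated across genes, which are not independent replicates, at r = 0.993 to 0.995.

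In fasted wild-type liver the 2 Insig transcripts moved in opposite directions by about the same factor, and Stard4 fell. Insig2 rose to 3.18 times its fed level, Insig1 fell to 32.3% of it and Stard4 to 22.5%. With limma, adjusted by Benjamini-Hochberg over all genes and called at an adjusted p under 0.05, 3 of the 5 members changed, 1 upward and 2 downward. Of all genes 5.02% were called, 1.87% upward and 3.15% downward. Scap and Srebf2 did not pass. The 2 groups did not overlap for 4 of the 5 members, a state that 50.8% of all genes showed, 27.1% with the fasted arrays higher and 23.7% with them lower. In whole liver, fewer cells of a type and less RNA per cell cannot be told apart.

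**Figure D1:**
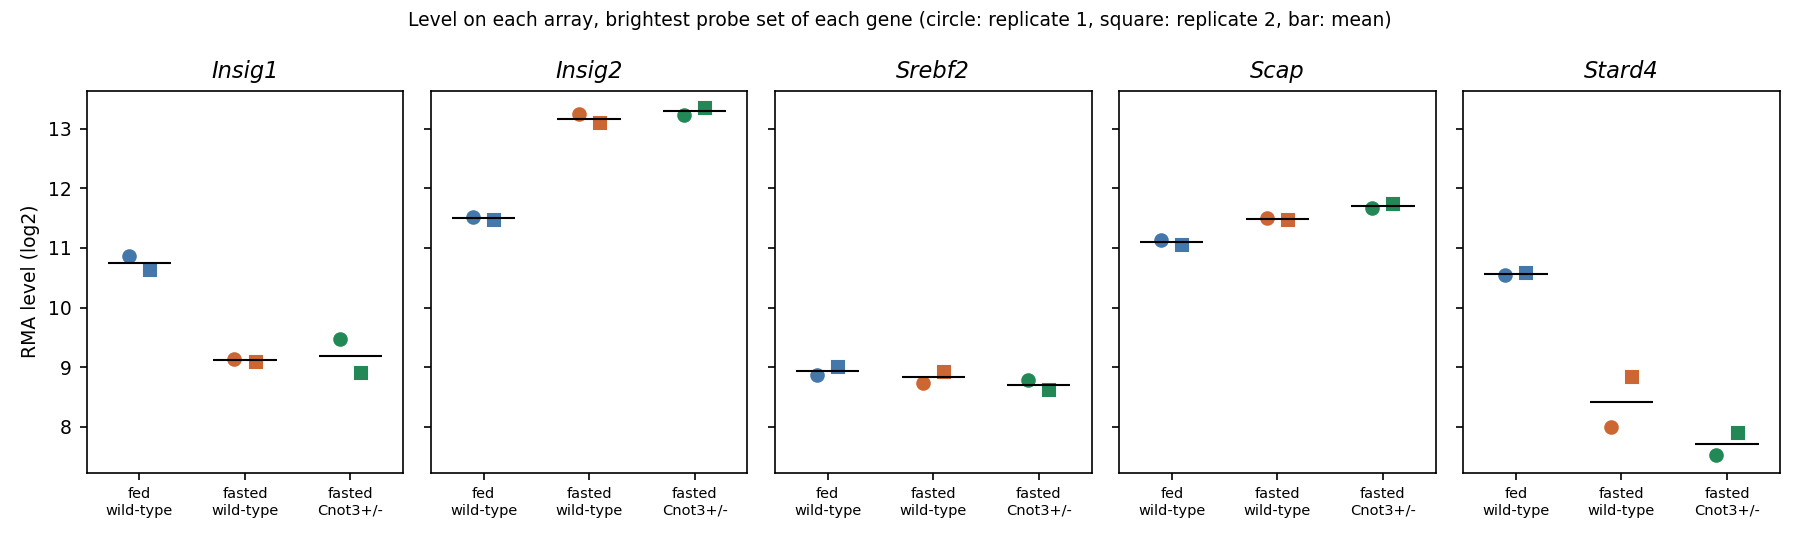
RMA log2 level of each member on each of the 6 arrays, by group, at the brightest probe set of the gene; circles are replicate 1, squares replicate 2 and bars the means of 2 arrays. Insig1 and Stard4 are lower and Insig2 is higher on all 4 fasted arrays than on both fed arrays, and levels of different genes are not comparable because their probes differ.

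Insig1 encodes an anchor of Scap and is itself a target of the factors that Scap carries. Its single probe set read 10.86 and 10.63 in fed livers, 9.15 and 9.09 in fasted wild-type livers, and 9.48 and 8.90 in fasted Cnot3+/- livers. Both fed arrays lay above all 4 fasted arrays, and the fasted Cnot3+/- arrays enclosed the fasted wild-type ones. The fasting difference was -1.63 (log2, SE 0.20, 95% confidence interval -2.09 to -1.17, n = 2 arrays in each group, limma adjusted p = 0.00657). Its size hardly moved when single arrays were left out, but the adjusted p was 0.0636 with replicate 1 of the fasted wild-type group left out and 0.0573 with its replicate 2 left out.

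Insig2 encodes the second anchor of Scap. At its brightest probe set it read 11.52 and 11.47 in fed livers, 13.24 and 13.09 in fasted wild-type livers, and 13.23 and 13.35 in fasted Cnot3+/- livers. All 4 fasted arrays lay within a narrow band well above the fed ones. The fasting difference was 1.67 (SE 0.12, interval 1.38 to 1.96, n = 2 arrays in each group, limma adjusted p = 0.0018). It passed the test with any single array left out, with differences from 1.59 to 1.75.

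The other probe sets of Insig2 gave the same direction. In a fit over all 34945 probe sets, of which 2.63% were called on fasting, the probe set 1417981_at differed by 1.81 (SE 0.17, limma adjusted p = 0.00799) and 1417980_a_at by 1.47 (SE 0.28, adjusted p = 0.0486). The latter was the least even within groups, at 12.60 and 11.98 in fasted wild-type livers and 12.83 and 12.18 in fasted Cnot3+/- livers. Its call did not hold after cyclic loess normalisation (adjusted p = 0.0502), after centring on array medians (0.0522), or without any single fed or fasted wild-type array (0.112 to 0.245). The call of 1417981_at was lost with either fasted wild-type array left out (adjusted p = 0.0822 and 0.0582). All 3 probe sets are annotated to a single accession, so they do not tell transcripts from different start sites apart.

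The within-array difference of Insig2 minus Insig1 puts both changes on a single scale. It was 0.66 and 0.84 in fed livers, 4.10 and 4.0 in fasted wild-type livers, and 3.75 and 4.44 in fasted Cnot3+/- livers. The fed value was 0.75 ± 0.13 and the fasted wild-type value 4.05 ± 0.07 (mean ± SD, n = 2 arrays), a shift of 3.30. Between the fasted genotypes the shift was 0.05. With 2 arrays against 2, an exact two-sided permutation test can give no p below 0.333, which it gave for the fasting shift, so that test could make no call here, and no other test was run on this value. The level of the difference depends on the affinity of the probes, and only its change between groups is read.

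**Figure D2:**
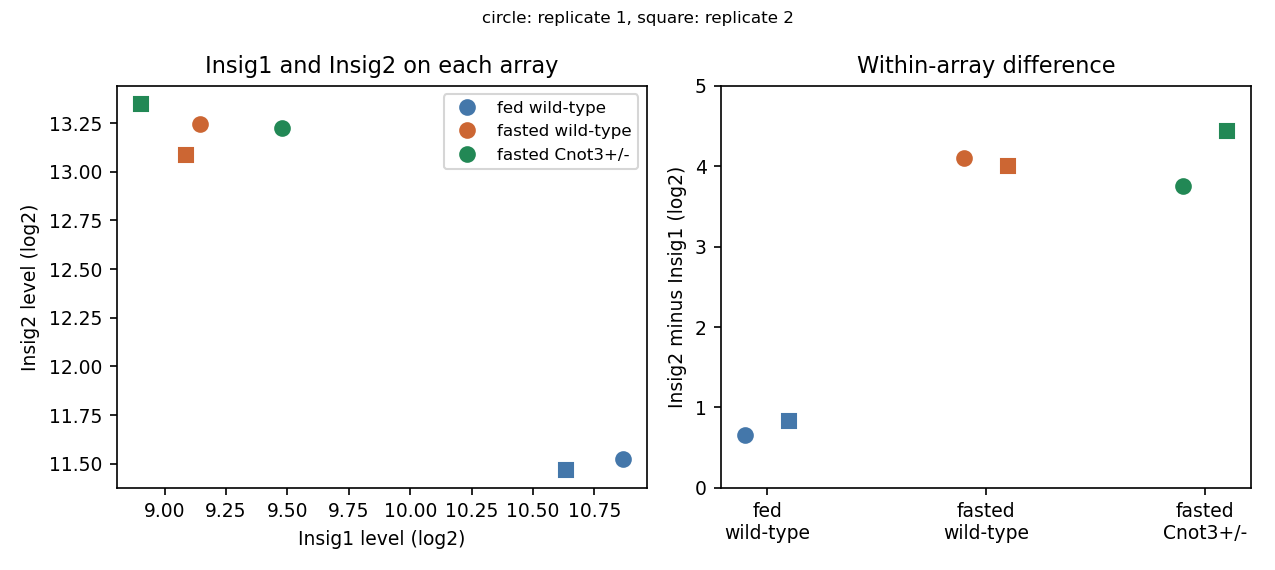
Left, the log2 level of Insig2 against that of Insig1 on each array; right, the within-array log2 difference of Insig2 minus Insig1 by group, with circles for replicate 1 and squares for replicate 2. The fed arrays sit apart at high Insig1 and low Insig2, with differences of 0.66 and 0.84, while the 4 fasted arrays lie between 3.75 and 4.44.

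Because the paralogs moved oppositely, the 250 bases upstream of their RefSeq start sites (GRCm38.p6, gene strand) are shown, with motif matches in capitals. The table lists 1 start for Insig1 and 3 for Insig2, and the first and the second Insig2 start, counted from upstream, are shown. The windows are chr5:28071162-28071411 (+) for Insig1, chr1:121332590-121332839 (-) for the first start of Insig2 and chr1:121328025-121328274 (-) for the second.
Insig1: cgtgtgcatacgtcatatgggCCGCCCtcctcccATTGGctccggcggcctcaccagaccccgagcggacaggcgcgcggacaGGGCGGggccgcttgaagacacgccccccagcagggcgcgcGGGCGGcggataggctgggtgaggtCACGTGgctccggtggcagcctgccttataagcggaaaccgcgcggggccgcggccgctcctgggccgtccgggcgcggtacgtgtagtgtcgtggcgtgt
Insig2, first start: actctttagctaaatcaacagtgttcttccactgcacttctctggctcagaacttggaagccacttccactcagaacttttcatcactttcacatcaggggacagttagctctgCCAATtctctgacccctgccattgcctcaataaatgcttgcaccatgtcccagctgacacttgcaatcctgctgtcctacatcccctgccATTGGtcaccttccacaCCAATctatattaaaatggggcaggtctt
Insig2, second start: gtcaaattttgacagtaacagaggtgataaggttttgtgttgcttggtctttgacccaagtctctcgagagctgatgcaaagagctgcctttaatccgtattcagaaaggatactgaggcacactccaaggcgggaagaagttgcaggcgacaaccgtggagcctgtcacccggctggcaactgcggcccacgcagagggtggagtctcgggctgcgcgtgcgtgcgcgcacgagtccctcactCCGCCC

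The capitals mark matches on either strand to 4 motifs: a sterol regulatory element core (TCACNCCAC), the CCAAT box (CCAAT), the GC box (GGGCGG) and the E-box (CACGTG). The Insig1 window holds 1 CCAAT box, 3 GC boxes and 1 E-box. The window of the first Insig2 start holds 3 CCAAT boxes, the nearest at base -29 from the start, and no match to the other motifs, while the second holds 1 GC box, at base -6. Of all 32851 windows of this length, 33.8% hold a CCAAT box, 32.7% a GC box, 6.02% an E-box and 1.05% the sterol element core. No searched window of Insig1, Insig2, Srebf2 or Scap holds that core, which says only that these letters are not in these 250 bases. Stard4 was left out of the motif search, so nothing is said here of its window. Srebf2 has 1 CCAAT box and 4 GC boxes in its window.

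Scap, the escort of the sterol-regulated factors, read 11.14 and 11.05 in fed livers, 11.50 and 11.47 in fasted wild-type livers, and 11.67 and 11.74 in fasted Cnot3+/- livers. The 3 groups did not overlap and stood in that order. Of all genes, 50.8% had no overlap between fed and fasted wild-type arrays and 36.0% none between the fasted genotypes. The share with all 3 groups in such an order was not computed. The fasting difference in wild-type liver was 0.39 (SE 0.11, interval 0.12 to 0.66, n = 2 arrays in each group, limma adjusted p = 0.114), which did not pass the test. The other Scap probe set, 1442885_at, read from 4.55 to 5.59, under the median of every array, so signal above background is not established for it.

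Srebf2 encodes the transcription factor that Scap carries and that drives sterol synthesis. Its brighter probe set read 8.88 and 9.01 in fed livers, 8.74 and 8.93 in fasted wild-type livers, and 8.79 and 8.62 in fasted Cnot3+/- livers. Fed and fasted wild-type arrays overlapped. The fasting difference was -0.10 (SE 0.13, n = 2 arrays in each group, limma adjusted p = 0.756), with an interval from 0.750 to 1.15 times the fed level. The dimmer probe set, 1426744_at, differed by -0.37 (SE 0.21, interval -0.88 to 0.13), and its groups overlapped as well.

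Stard4 encodes a START domain protein that carries sterol between membranes. It read 10.55 and 10.58 in fed livers, 8.00 and 8.83 in fasted wild-type livers, and 7.52 and 7.89 in fasted Cnot3+/- livers. The fed arrays were nearly equal, and all fasted arrays lay far below them, with the widest gap between replicates in the fasted wild-type group. The fasting difference was -2.15 (SE 0.26, interval -2.77 to -1.53, n = 2 arrays in each group, limma adjusted p = 0.00711). It was -1.73 with replicate 1 of the fasted wild-type group left out and -2.57 with its replicate 2 left out. It passed the test in both cases, but its highest adjusted p with an array left out lay only just under 0.05.

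The second Stard4 probe set, 1429240_at, read 10.31 and 10.49 on the fed and 7.79 and 8.38 in fasted wild-type livers. It fell by 2.32 (log2, SE 0.20, limma adjusted p = 0.00694), a call that was lost without fed replicate 2 (adjusted p = 0.0564). The third, 1429239_a_at, read 9.18 and 9.21 on the fed, 6.67 and 8.08 on the fasted wild-type, and 5.48 and 6.55 in fasted Cnot3+/- livers. Its fasting difference of -1.82 (SE 0.49, adjusted p = 0.121) did not pass. Over all 11 probe sets of the members, 3 rose, 3 fell and 5 did not pass, where 2.63% of all probe sets were called. The rises were all of Insig2 and the falls of Insig1 and Stard4. Probe sets of a single gene on the same arrays are not independent.

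**Figure D3:**
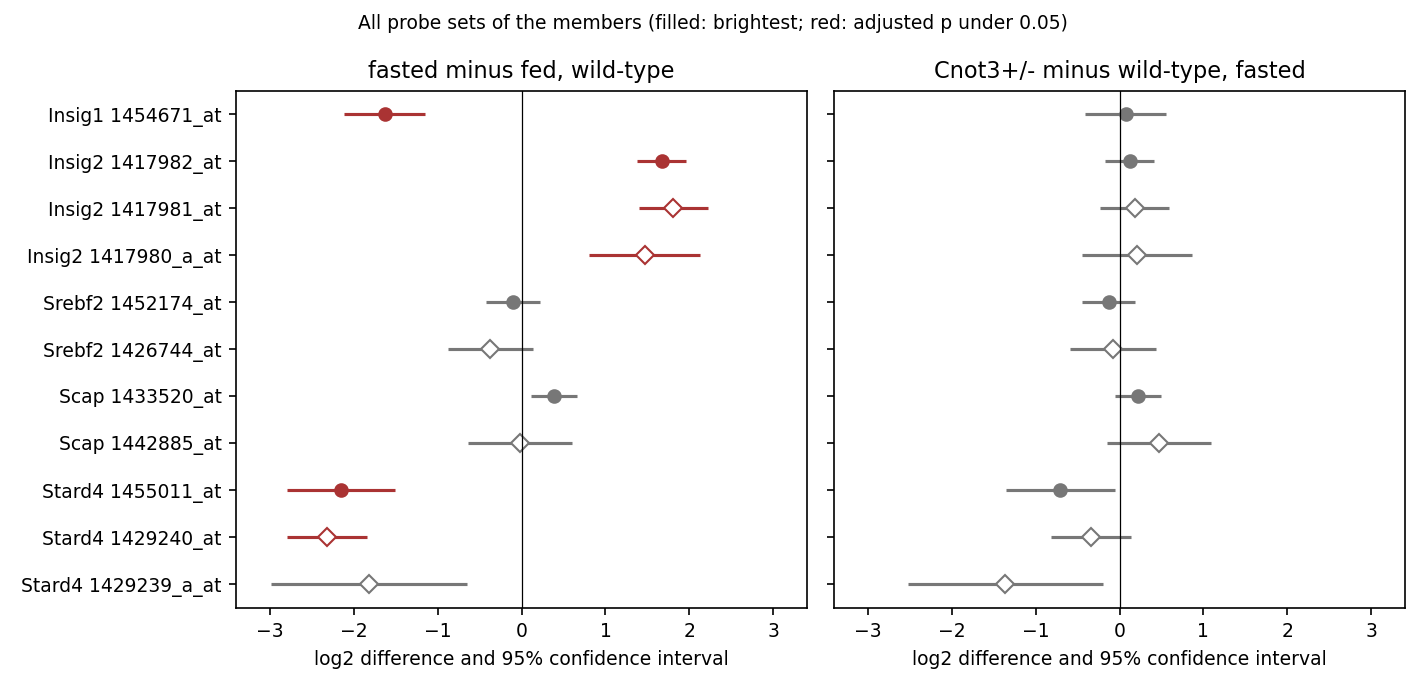
Log2 differences of all 11 probe sets of the 5 members with 95% confidence intervals, for fasting in wild-type mice (left) and for Cnot3+/- against wild-type in fasted mice (right); filled circles are the brightest probe set of each gene and red marks an adjusted p under 0.05 in the fit over all probe sets. The 3 Insig2 probe sets lie to the right of 0 and the 3 Stard4 probe sets to the left on fasting, and 0 probe sets are red for genotype.

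Between the fasted genotypes no member passed the test. limma called 0 of 18193 genes (0% of those tested), also with a variance trend, and 1011 had an unadjusted p under 0.05. The log2 difference of Cnot3+/- from wild-type was 0.07 for Insig1 (interval 0.763 to 1.45 times the wild-type level), 0.12 for Insig2 (0.891 to 1.33 times) and -0.13 for Srebf2 (0.737 to 1.13 times). For Scap it was 0.22 (SE 0.11, limma adjusted p = 0.865), with an interval from 0.970 to 1.41 times the wild-type level. Without fasted Cnot3+/- replicate 1 the difference of Insig1 had the opposite sign, at -0.21.

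Stard4 was lower on the Cnot3+/- arrays at all 3 of its probe sets, without overlap between the genotypes and without passing the test. The differences were -0.70 (SE 0.26, limma adjusted p = 0.863) at the brightest probe set, and -0.34 and -1.36 (adjusted p = 0.823 and 0.814) at 1429240_at and 1429239_a_at. Unadjusted, the p values of these limma fits were 0.0312, 0.139 and 0.0282. The probe sets share their arrays and are not independent. At the brightest probe set the difference was -0.29 with replicate 2 of the wild-type group left out and -1.12 with its replicate 1 left out. In the same order it was -0.04 and -0.63 at 1429240_at, and -0.66 and -2.06 at 1429239_a_at, so that its size rests on which wild-type array is used. At 1429239_a_at it was also -0.83 with Cnot3+/- replicate 1 left out. Groups did not overlap for 2 of the 5 members, Stard4 and Scap, against 36.0% of all genes, 17.5% higher and 18.5% lower in Cnot3+/- liver.

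Fasted Cnot3+/- liver was also set against fed wild-type liver, a comparison that uses the same fed arrays as the one above and in which diet and genotype cannot be told apart. Of the 5 members 4 were called, 2 higher and 2 lower. Of all genes 7.56% were called, 3.88% higher and 3.68% lower. Insig2 differed by 1.79 (SE 0.12, limma adjusted p = 0.00108), Insig1 by -1.56 (SE 0.20, adjusted p = 0.00609) and Stard4 by -2.85 (SE 0.26, adjusted p = 0.00249). The side-by-side values in wild-type fasting were 1.67, -1.63 and -2.15. Srebf2 differed by -0.23 (SE 0.13, adjusted p = 0.386). Groups did not overlap for all 5 members, against 48.0% of all genes, 24.6% higher and 23.4% lower. Of the 11 probe sets of the members, 4 were higher and 4 lower in the fit over all probe sets, of which 4.41% were called. The higher ones were of Insig2 and Scap and the lower ones of Insig1 and Stard4, so they are not independent.

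Scap rose in this comparison, to 1.53 times the fed level, by 0.61 (log2, SE 0.11, interval 0.34 to 0.88, limma adjusted p = 0.0231). The call was lost without any single array of the 6 (adjusted p from 0.0551 to 0.11) and with the mean over both probe sets (0.53, adjusted p = 0.0755). Markers of Kupffer cells, the macrophages of the liver, moved in the same order of groups. Their summed level was 12.72 and 12.97 in fed livers, 13.17 and 13.23 in fasted wild-type livers, and 13.96 and 13.40 in fasted Cnot3+/- livers. All 10 measured markers had positive differences in both steps. Between fasted Cnot3+/- and fed liver 5 were called, among them Cd163 (1.78) and Marco (1.65), where 3.88% of all genes were called higher. Of the 10, 1 had a mean level below that of the median gene. Their part in the level of Scap was not tested.

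The other genes of the pathway were read from lists by role. Each list count on fasting stands beside 1.87% of all genes called higher and 3.15% called lower. Of 17 measured sterol synthesis enzymes, 12 fell on fasting, 0 rose and 5 did not pass, with a median difference of -1.59 against 0.02 over all genes. The lowest p values belonged to Lss, lanosterol synthase (-1.80, SE 0.14, limma adjusted p = 0.00212), Dhcr7, which makes the last step to cholesterol (-1.66, SE 0.14), Nsdhl, a sterol decarboxylating dehydrogenase (-3.00, SE 0.25), and Idi1, isopentenyl diphosphate isomerase (-3.33, SE 0.30). Nsdhl read 11.20 ± 0.51 on the fed and 8.20 ± 0.23 in fasted wild-type livers (mean ± SD, n = 2 arrays). With single arrays left out, 8 to 12 of the 17 enzymes were called lower, the 8 without fasted wild-type replicate 1.

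The genes that move and cut the sterol-regulated factors, or that take Insig proteins out of the membrane, were read next. Of 26 measured, 2 rose, 2 fell and 22 did not pass, and the median was -0.03. On fasting 1.87% of all genes were called higher and 3.15% lower. Srebf1, the sister factor that drives fat synthesis, read 13.03 and 13.51 in fed livers, 8.46 and 8.74 in fasted wild-type livers, and 8.83 and 8.58 in fasted Cnot3+/- livers (-4.67, SE 0.19, limma adjusted p = 0.000252). The paralogous coat proteins of vesicles that leave the endoplasmic reticulum went opposite ways: Sec23b fell by 1.16 (log2, SE 0.17) and Sec23a rose by 0.57 (SE 0.11). Nploc4, a cofactor in the extraction of proteins for degradation, rose by 0.74 (SE 0.14). The Golgi proteases Mbtps1 and Mbtps2 differed by -0.26 (adjusted p = 0.309) and -0.04 (adjusted p = 0.924); they are named outside the rule for named genes, because they cut the factor.

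Sec23a and Nploc4 were not called without any single fed or fasted wild-type array (adjusted p up to 0.195). Sec23b was not called without either fed array or without fasted wild-type replicate 1 (adjusted p up to 0.105).

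**Figure D4:**
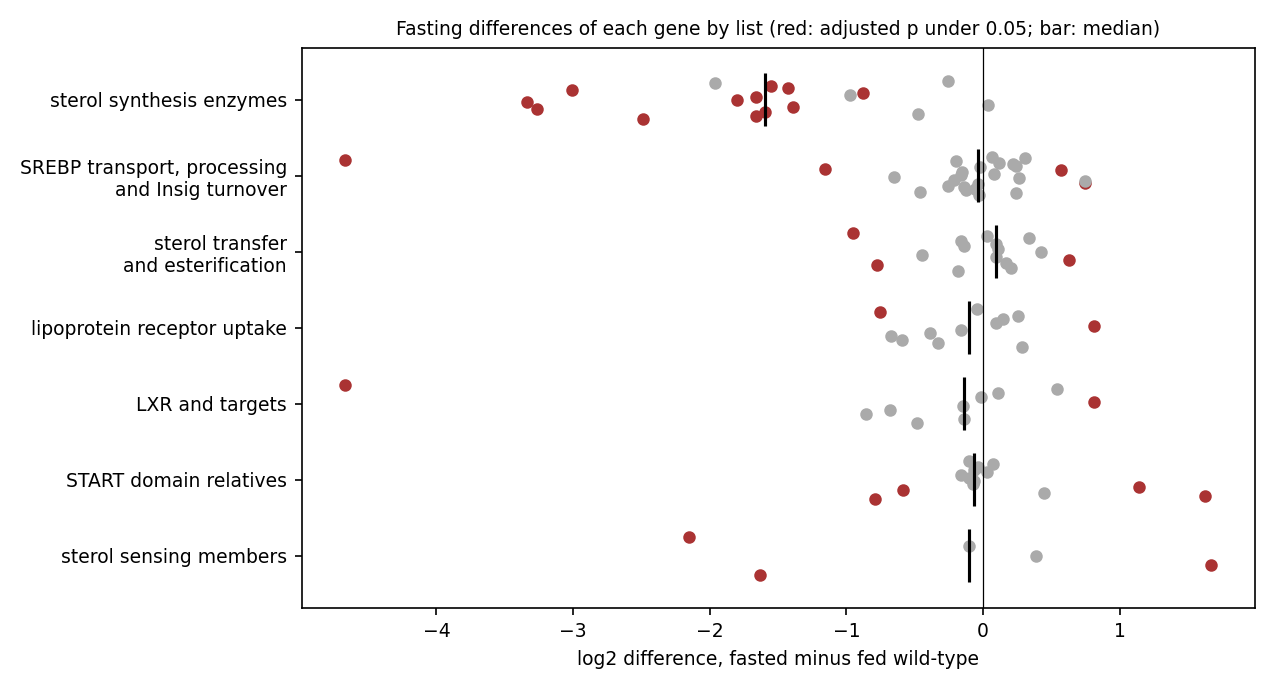
Log2 difference of fasted minus fed wild-type liver for each measured gene, by list; red points have an adjusted p under 0.05 and bars are list medians. The sterol synthesis enzymes have a median of -1.59 while the medians of the other lists lie between -0.14 and 0.09. Srebf1, Mylip, Stard3 and Stard5 each appear in 2 lists. The list of sterol transfer and esterification holds no measured enzyme that makes sterol esters.

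In the list of sterol transfer and esterification, 1 of 15 measured genes rose and 2 fell, with a median of 0.09. Among all genes 1.87% were called higher and 3.15% lower. None of the 15 encodes an enzyme that makes sterol esters, so the values are about transfer. Npc1, which exports cholesterol from lysosomes, read 9.63 and 9.55 on the fed, 10.15 and 10.29 on the fasted wild-type and 10.60 and 10.76 in fasted Cnot3+/- livers. It rose on fasting by 0.63 (log2, SE 0.13, limma adjusted p = 0.0369), and the genotypes differed by 0.47 (adjusted p = 0.863). As for Scap, the Kupffer markers stood in the same order, and their part was not tested. Tmem97, which binds Npc1, fell by 0.95 (SE 0.16), and Gramd1c, a sterol transporter at membrane contacts, by 0.77 (SE 0.14). Osbp, the oxysterol binding protein, differed by -0.45 (adjusted p = 0.0694, and 0.0485 with the mean over probe sets). Npc1 and Gramd1c were not called without any single fed or fasted wild-type array (adjusted p up to 0.214), and Tmem97 was not called without either fed array or without fasted wild-type replicate 1 (adjusted p up to 0.127).

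Among 12 measured genes of lipoprotein receptor uptake, 1 rose and 1 fell, with a median of -0.10. The shares over all genes were 1.87% called higher and 3.15% called lower. Mylip, the ubiquitin ligase that marks lipoprotein receptors for degradation, read 8.41 and 8.23 on the fed and 9.13 and 9.13 in fasted wild-type livers (0.81, SE 0.15, limma adjusted p = 0.0275). Sort1, a sorting receptor of the Golgi, read 8.81 and 8.94 on the fed and 8.12 and 8.11 in fasted wild-type livers (-0.76, SE 0.12, adjusted p = 0.0177). Both calls were lost without any single fed or fasted wild-type array (adjusted p up to 0.162), and that of Sort1 also with the mean over probe sets. Commd1 and Dab2, which act in receptor sorting and endocytosis, differed by -0.60 and -0.67 (adjusted p = 0.0537 and 0.0621). Commd1 passed under 5 alternatives: the mean over probe sets (0.027), cyclic loess (0.0431), centring (0.0491), genes above the median gene (0.0482) and the replicate block (0.0451). Dab2 passed without fed replicate 1 (adjusted p = 0.04999).

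The sterol-activated receptors of the LXR family and their targets showed 1 rise, of Mylip, and 1 fall, of Srebf1, among 10 measured genes. Their median was -0.14, and over all genes 1.87% were called higher and 3.15% lower. Abcg5, a subunit of the sterol exporter into bile, differed by -0.86 (SE 0.20, limma adjusted p = 0.0619), and Rxrb, a partner receptor, by 0.54 (SE 0.12, adjusted p = 0.0535). Each passed under 3 alternatives, Abcg5 with a variance trend (0.047), with the replicate block (0.0466) and without fed replicate 2 (0.0363), and Rxrb with the mean over probe sets (0.0416), genes above the median gene (0.048) and the replicate block (0.0482). Of 14 measured relatives of Stard4 with a START domain or a name of that family, 2 rose and 2 fell. Their median was -0.06, beside the same shares over all genes. Acot12, an acetyl-CoA hydrolase, rose by 1.62 (SE 0.20, adjusted p = 0.00749) and Pctp, the phosphatidylcholine transfer protein, by 1.14 (SE 0.21). Acot11, a thioesterase of long-chain acyl-CoA, fell by 0.79 (SE 0.14) and Dlc1 by 0.58 (SE 0.12). Calls of Pctp, Acot11 and Dlc1 were lost without any single fed or fasted wild-type array (adjusted p up to 0.263), those of Pctp and Dlc1 also with the mean over probe sets, and that of Dlc1 also with a variance trend (0.0685) and without either Cnot3+/- array (0.0545). That of Acot12 was lost without fed replicate 2 or fasted wild-type replicate 2 (up to 0.062).

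None of the listed pathway genes was called between the fasted genotypes. The smallest unadjusted p in each list belonged to Npc1 (0.00723), Star (0.0171), Crtc2 (0.0181), Snx17 (0.0354), Abcg5 (0.0407) and Sc5d (0.111), with limma adjusted p values from 0.863 to 0.865. Abcg5 read 10.93 and 11.07 in wild-type and 11.62 and 11.40 in Cnot3+/- fasted livers, higher in the latter by 0.51 (SE 0.20). The sterol synthesis enzymes had a median genotype difference of -0.11.

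The genes whose levels ran most nearly parallel to a member over the 6 arrays were taken from 1450 genes above the median gene that spanned at least 1 log2 unit, and their correlations are descriptions. Where the fed arrays stand apart from the fasted ones, a gene that changed on fasting in the member's direction tends to score high. For Insig1 the named genes were Ces1g, a carboxylesterase (r = 0.996), Col3a1, a collagen (0.995), and Hmgcs1, the sterol synthesis enzyme that makes HMG-CoA (0.994). Hmgcs1 read 12.16 and 11.96 on the fed, 10.59 and 10.75 on the fasted wild-type, and 11.01 and 10.57 in fasted Cnot3+/- livers, so that, as for Insig1, the first Cnot3+/- array was the highest of the fasted arrays. For Stard4 they were Bdh2 (0.997), Txndc5 (0.993) and Ssr3 (0.992), for Insig2 Bfar, Chkb and St3gal5 (0.994 to 0.999), and for Scap Tm6sf1, Sun2 and Atg2a (0.994 to 0.999). For Srebf2, which varied least and whose fed and fasted wild-type arrays overlapped, they were Zfpm1 (0.979), Adgrl2 (0.935) and Lrp4 (0.919).

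Col3a1 is a marker of stellate cells, the collagen-making cells of the liver. Of 8 measured stellate markers, 3 fell on fasting (Col3a1, Lrat and Col1a1) and 1 rose (Dcn). Over all genes 3.15% were called lower and 1.87% higher. Differences were negative for 6 of the 8, with a median of -0.54 against 0.02 over all genes, and Col3a1 fell by 2.32 (log2, SE 0.34, limma adjusted p = 0.0125). The summed level of the 8, which hides these opposite changes, was 12.33 and 12.24 on the fed, 12.41 and 12.31 on the fasted wild-type, and 12.61 and 12.27 in fasted Cnot3+/- livers. Their part in the level of Insig1 was not tested. Of the markers of other cell types, Lyve1 of endothelium rose (1 of 8 measured) and Cela1 of exocrine pancreas fell (1 of 3), and no cholangiocyte (4), lymphocyte (5), erythroid (2), adipocyte (3) or muscle (4) marker was called.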

How the data were processed

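Liver RNA was hybridised as biotin-labelled cRNA made from 10 ug of total RNA, per the labels' protocols. The deposited log2 levels come from RMA as run by the authors (per the submitters' processing notes, without a version) and were not normalised again. Of 45101 probe sets, 64 were controls, 34945 named a single gene, 932 several and 9160 none, by a platform annotation whose symbols were updated by gene ID. A gene with several such probe sets was represented by the one with the highest mean.

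All genes were tested in 1 fit of 3 group means with limma 3.58.1 on R 4.3.3 (residual df 3, prior df 4.24), adjusted by Benjamini-Hochberg within a comparison. The fit was run on data simulated with independent normal noise from its own fitted spread, which cannot check the calls on these arrays. Members and gene lists were chosen with earlier results of these data known. In each list, genes named are the 4 with the smallest fasting p and, for genotype, up to 2. For likeness, 3 genes per member were taken by Pearson r. Alternatives were the probe set rule, normalisation, a filter on dim genes, a variance trend, the groups fitted, a block and each array left out. Promoter windows are from RefSeq. Plots used matplotlib 3.10.9 (Python 3.11.15).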

Additional observations from a re-analysis of the deposited data

How the results depend on the processing

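Each member was recomputed under 14 alternatives per comparison, which are not separate checks. For fasting, fitting only the groups compared and leaving out either Cnot3+/- array were the same fit. Dropping _x_at and _s_at probe sets kept each member's brightest probe set, so its log2 difference could not move. Insig1 has a single probe set, so averaging over probe sets could not move it either. Insig2 and Stard4 kept their direction and their call on fasting in all 14, with Insig2 from 1.59 to 1.75 and Stard4 from -2.57 to -1.73 (log2). The Stard4 call was at its weakest only just under the threshold. Insig1 kept its direction, from -1.75 to -1.52 with single arrays left out, and lost its call without either fasted wild-type array. Insig1 between genotypes ran from -0.21 to 0.36. Scap against fed liver lost its call with the mean over probe sets (0.53), with only the groups compared (0.61) and with single arrays left out (0.57 to 0.65). With arrays left out, other probe sets changed sign where the difference was near 0: 1442885_at of Scap on fasting (-0.31 to 0.27), and between genotypes 1417980_a_at of Insig2 (-0.12 to 0.53) and 1426744_at of Srebf2 (-0.26 to 0.11).

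With arrays left out the genes called numbered 137 to 1033 for fasting, where 913 were called on all arrays: 458 and 287 without fed replicate 1 and 2, and 137 and 193 without fasted wild-type replicate 1 and 2. For genotype 0 to 2 were called, 1 and 2 without fasted Cnot3+/- replicate 1 and 2. For fasted Cnot3+/- against fed wild-type, where 1375 were called, the range was 597 to 929, and 857 were called with only the groups compared. With 1 array left in a group, it is assumed to vary like the others. The labels pair no arrays, and same-numbered arrays shared 0.04 (fed with fasted wild-type), -0.01 (fed with Cnot3+/-) and 0.45 (fasted genotypes) in the correlation of their deviations. With the replicate number as a block, 1206 genes were called for fasting, 0 for genotype and 1708 in the third comparison, no call on a member's brightest probe set changed, and Stard4 1429239_a_at passed on fasting (adjusted p = 0.0381).

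The list counts and the pathway genes were recomputed under alternatives added after the data were seen. Of 653 such values of pathway genes and other probe sets, 568 kept direction and call, 66 lost a call, 14 gained one and 5 changed sign; of 168 list counts, 118 stayed within 1.5 times. With 2 arrays a group, small differences can be missed.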
